A study of Mus musculus with 7 samples.

Results

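Transcripts of the cytosolic ribosomal proteins were followed in sorted β-cells of 2-week-old mice with and without Raptor. Members were taken by gene symbol, as Rps or Rpl with a number and an optional a or x, Rpsa, or Rplp0 to Rplp2. The array annotation named 54 such genes among 22198 transcript clusters, each by 1 transcript cluster, of which 21 encode proteins of the small (40S) subunit and 33 of the large (60S) subunit. Another 22 symbols of this form that RefSeq lists, Rplp2 among them, were given to no transcript cluster by this annotation. They were therefore not analysed here, and the members are only part of the family. The Raptor knockout (KO) group had 4 arrays (Raptor-/-, RIP-Cre, Rosa26GFP) and the WT group had 3 (Raptor+/+, RIP-Cre, Rosa26GFP). Both groups thus carried the Cre, driven by the rat insulin promoter, and the GFP reporter by which cells were sorted from islets. The labels give C57BL/6 as the strain background, while the methods describe the RIP-Cre line as of mixed background. Several animals of the same genotype were pooled for each Affymetrix Clariom S array. Signals are given on the log2 scale after quantile normalization, and a difference is the KO mean minus the WT mean, with its standard error (SE).

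The ribosome is built from ribosomal RNA and a fixed set of proteins. The small subunit reads the mRNA and the large subunit joins amino acids and releases the chain through a tunnel. mTOR complex 1, of which RAPTOR is the defining subunit, is known to act on this machinery through the S6 kinases, which phosphorylate the ribosomal protein S6, and through the 4E-BP proteins. mRNAs of ribosomal proteins are known to start with a run of pyrimidines, the 5′ terminal oligopyrimidine (TOP) tract, and their translation depends on mTOR complex 1 through LARP1. An array measures the amount of a transcript and not its translation. In β-cells, proinsulin is a major product of this machinery.

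The start sites of the members are shown because the pyrimidine run is a feature they share which the choice by symbol did not use. RefSeq (GRCm38.p6) listed a window of 250 bases before and 50 after the start for 42 of the 54 members. A run of at least 8 bases of only C and T, beginning with C, lay between 20 bases before and 30 after the listed start in 23 of the 42 (54.8%), against 17.6% of 15684 genes on the array. On the opposite strand it lay in 4 of the 42 (9.52%), against 19.4%. A gene counted where any of its listed windows held a run, and a run could lie before or after the listed start. The runs of Rpl4, Rpl5, Rpl19, Rpl31, Rpl39, Rps15a and Rps25 lay wholly before the listed start. The share is thus not one of runs within the listed transcript. The runs of Rpl10a and Rpl11 began 17 and 14 bases after the listed start. Other genes with a run, among them Rps25, Rpl31 and Rpl39, are not printed. For 9 of the genes described below that held a run, it is in capitals here, read in the direction of the transcript:
Rps6, chr4:86857347-86857374, minus strand: gtcgggCCTCTTTTTCgtgacgcctccc
Rps9, chr7:3704030-3704057, plus strand: ccttgtCTCTCTTTgtctcgggcctgag
Rps26, chr10:128626481-128626508, minus strand: ccggatCCTCTTTCgagtcttggctcca
Rpl5, chr5:107900508-107900535, plus strand: CTCTTTCTCacgtcgcttgcgtgctggt
Rpl10a, chr17:28328576-28328603, plus strand: gctctgCCTTCTTTCCggtttccgcggc
Rpl11, chr4:136053358-136053385, minus strand: ggaagtCTCCCTCTCTCTTCCTgttctc
Rpl14, chr9:120571503-120571530, plus strand: ggcgggCCCTCTCTCTTCTCgctgagcg
Rpl15, chr14:18270969-18270996, minus strand: agaaagCCTTCTTCCTTTCCTCTggcgg
Rpl35a, chr16:33056471-33056498, plus strand: ggcttgCCTTCCTCTTTCCgccatcttg

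The letters CCGGAAG, known from binding sites of the ETS family, were found on either strand of the whole window in 18 of the 42 members (42.9%), against 13.2% of the genes on the array. AAGATGG, part of the known YY1 site, was found in 7 (16.7%), against 7.29%, and GGGCGG, known from Sp1 sites, in 24 (57.1%), against 51.2%. None of these strings contains another. Of 67 mitochondrial ribosomal protein genes, 12 held the pyrimidine run and 25 held CCGGAAG. The matches are counts of letters in these windows and were not tested.

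Some facts of the series bear on all values. The targeted gene Rptor was 5.99, 5.96, 4.4 and 8.54 on KO replicates 1 to 4 and 5.98, 5.26 and 6.08 on the WT arrays, a difference of 0.45 ± 0.863 (SE), or -0.33 without KO replicate 4. Where its probes lie relative to the deletion was not known, and its signal is therefore no check of the labels. The arrays KO replicate 3, KO replicate 4 and WT replicate 3 stood apart over all transcript clusters, with a median correlation with the others of 0.937, 0.924 and 0.933, against 0.954 to 0.961 for the rest. The Y-linked genes Kdm5d, Uty and Eif2s3y averaged 4.52 on KO replicate 4 and 4.42 on WT replicate 3, against 7.49 to 8.89 on the others, although the methods describe male mice. Of 9 β-cell markers, 6 were below WT in the mean and 2 above, and Ins2 stood at the upper limit on every array. Iapp, counted as below, stood at the limit on all arrays but KO replicate 3 (19.35). Slc2a2, the glucose transporter of mouse β-cells, was 15.43, 14.67, 14.36 and 13.25 in KO, against 16.64, 16.29 and 16.19 in WT (difference -1.94, limma unadjusted p = 0.00416, adjusted p not under 0.05). The zinc transporter Slc30a8 also passed an unadjusted p of 0.05 (difference -0.96, unadjusted p = 0.0359). Mafa, a β-cell transcription factor, lay between 3.44 and 3.80. Of 4 α-cell markers, 2 were above and 1 below WT in the mean. Gcg stood at the limit on every array and Ttr lay between 18.11 and 19.41, whereas the transcription factors Irx1 (3.27 to 4.11) and Irx2 (5.52 to 6.42) were low. Of 5 markers of other islet cells, all 5 were above WT in the mean, and 0 passed an unadjusted p of 0.05. The hormone genes Sst, Ppy and Pyy lay between 15.85 and 19.91. The remaining markers were lower, with Ghrl between 6.25 and 11.15 and Hhex between 4.6 and 7.9. The part of these cells in the members' values was not tested. The mean of 15 acinar genes ranged from 8.6 to 14.36 on the KO arrays and from 7.37 to 13.43 on the WT arrays. Of the 15, 13 were above and 2 below WT in the mean, and 0 passed an unadjusted p of 0.05. In sorted bulk RNA, fewer cells of a type and less RNA per cell cannot be told apart.

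The comparison of KO with WT asked whether transcripts of ribosomal proteins depend on Raptor before diabetes develops. No difference was detected for any of the 53 members that could be read. Of these, 27 were above WT and 26 below it, and the median difference was 0.01, with quartiles at -0.31 and 0.12. The median over all transcript clusters was 0.0, with quartiles at -0.22 and 0.23. Rpl41, a very short protein of the large subunit, stood at the upper limit on all 7 arrays, and no difference was read for it. The 40S members had 11 above and 10 below WT (median 0.01), and the 60S members 16 above and 16 below (median -0.02).

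At an unadjusted p of 0.05 in limma, 0 of the 53 members passed, against 2.18% of all transcript clusters (1.01% higher and 1.17% lower in KO) and 2.88% of the 3333 at least as bright as the dimmest member. The methods' t-test also called 0, against 2.41% of all transcript clusters. After Benjamini-Hochberg adjustment over the whole array 0 members passed, against 0.0% of all, and each had an adjusted p of 1. The KO and WT values overlapped for all 53 members, while they did not for 3.93% of all and 2.94% of the bright transcript clusters. The dimmest member, which set the limit for the bright ones, was Rplp0, averaging 8.97 in KO and 9.15 in WT. The median signal of the members was between 15.48 and 16.27 on each array. The bright transcript clusters were thus not matched to the members in signal. The means lay at least 1.5-fold apart for 5 members (9.43%), which were Rpl15, Rpl21, Rpl29, Rpl9 and Rps9. The same held for 14.1% of all transcript clusters and for 28.6% of the bright ones. Without KO replicate 3 the differences of these 5 were smaller, at -0.14 for Rpl15, 0.0 for Rpl21, 0.19 for Rpl29, 0.12 for Rpl9 and 0.29 for Rps9.

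The 95% interval of the difference included 0 for all 53 members, and its half-width ran from 0.46 to 2.76 with a median of 0.97 log2 units. For 16 members it lay wholly within a 2-fold difference either way. Changes smaller than these intervals were not detectable with 7 arrays.

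**Figure D1:**
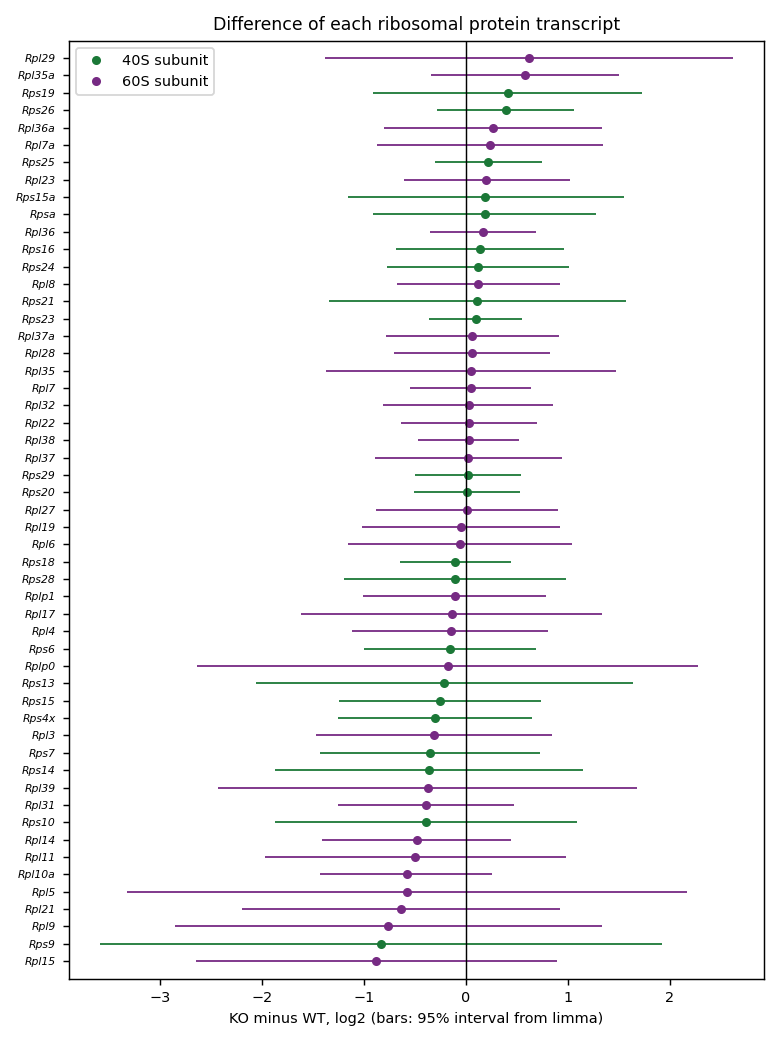
Difference in log2 signal (KO minus WT, x axis) for each of the 53 readable members (y axis), coloured by subunit, where points are differences of the means and bars the 95% interval from limma. Every bar crosses 0, and the bars of Rps9, Rpl5 and Rplp0 are among the widest.

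Rps6 encodes the substrate of the S6 kinases, whose phosphorylation is the usual readout of mTOR complex 1. Its signal was 17.79, 17.73, 16.39 and 17.12 on KO replicates 1 to 4, against 17.53, 17.38 and 17.34 on the WT arrays. KO replicates 1 and 2 were thus above all WT arrays and KO replicates 3 and 4 below them. The difference was -0.16 ± 0.362 (SE; 95% interval -1.0 to 0.69; limma unadjusted p = 0.677), and it was 0.12 without KO replicate 3.

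The 12 members with the smallest p in either direction also overlapped between the groups. Rpl10a, a protein of the mobile stalk near the exit site, was 12.30, 11.34, 10.82 and 11.58 on the KO arrays, against 12.41, 11.98 and 11.88 on the WT arrays. KO replicate 1 alone lay among the WT values. Its difference of -0.58 ± 0.362 (SE) had the smallest p of all members (unadjusted p = 0.15), and without KO replicate 1 it was the only member to pass an unadjusted p of 0.05, where 3.13% of all transcript clusters did. Rpl35a, which is mutated in some human cases of Diamond-Blackfan anaemia, was 16.18, 15.93, 16.74 and 17.04 on the KO arrays, against 15.87, 15.26 and 16.56 on the WT arrays. The third WT value lay above those of KO replicates 1 and 2, and the difference was 0.58 ± 0.395 (SE, unadjusted p = 0.183).

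Rps26, a protein at the mRNA exit channel, was 13.16, 12.35, 12.85 and 12.60 on the KO arrays, against 12.79, 12.03 and 12.23 on the WT arrays (difference 0.39, unadjusted p = 0.215). Rpl14, of the large subunit, was 15.85, 15.35, 15.84 and 16.42 on the KO arrays, against 16.05, 15.82 and 17.18 on the WT arrays (difference -0.48, unadjusted p = 0.26), and its difference was -0.07 without WT replicate 3. In each of these genes the values of the groups interleaved. Others above WT in the mean were Rps25 (0.22), known for its part in internal initiation on viral RNAs, Rpl36 (0.17), Rpl29 (0.62) and Rps19 (0.41), the gene most often mutated in human Diamond-Blackfan anaemia. Their unadjusted p lay between 0.348 and 0.494. The difference of Rps19 was 0.03 without KO replicate 4, and that of Rpl36 was 0.06 without KO replicate 3. Others below WT were Rpl15 (-0.88), Rpl31 (-0.39), which lies at the tunnel exit, Rpl21 (-0.64) and Rpl9 (-0.76), with unadjusted p between 0.281 and 0.423. That of Rpl31 was -0.09 without KO replicate 3.

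The members were then grouped by their place in the ribosome. Rpl5 and Rpl11 carry the 5S ribosomal RNA into the large subunit and are known to bind Mdm2. Rpl5 was 14.93, 14.04, 9.97 and 14.10 on the KO arrays, against 14.58, 14.40 and 12.52 on the WT arrays, so that KO replicate 3 lay far below every other array and WT replicate 3 next to it. The difference was -0.58 ± 1.18 (SE, unadjusted p = 0.638) and turned to 0.53 without KO replicate 3. Rpl11 had the same low arrays, at 15.40, 14.44, 13.16 and 13.94 on the KO arrays and 15.27, 15.39 and 13.53 on the WT arrays (difference -0.50, unadjusted p = 0.458), and its difference was -0.14 without KO replicate 3.

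The stalk proteins recruit the elongation factors to the ribosome. Rplp0, its anchor, was 8.4, 7.88, 8.61 and 10.99 on the KO arrays, against 8.49, 7.53 and 11.43 on the WT arrays. Its high arrays were thus KO replicate 4 and WT replicate 3, and the difference was -0.18 ± 1.05 (SE, unadjusted p = 0.872). Rplp1 was 16.95, 17.45, 17.75 and 17.82 on the KO arrays, against 17.28, 17.08 and 18.44 on the WT arrays (difference -0.11, unadjusted p = 0.783), again highest on WT replicate 3. Without WT replicate 3 the differences were 0.96 for Rplp0 and 0.30 for Rplp1. Rpsa, a 40S protein also known as the laminin receptor, was 18.01, 17.66, 19.64 and 18.32 on the KO arrays, against 18.06, 18.01 and 18.59 on the WT arrays. It was highest on KO replicate 3 (difference 0.19, unadjusted p = 0.698; -0.23 without that array).

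Of 6 measured proteins of the peptide tunnel and its exit, 5 were below WT and 1 above it (median difference -0.15). Rpl39, which lines the tunnel, was 15.75, 15.22, 13.49 and 13.96 on the KO arrays, against 16.03, 15.97 and 12.94 on the WT arrays. Its low arrays were KO replicates 3 and 4 and WT replicate 3. Of 5 measured proteins along the mRNA path, 3 were below WT and 2 above it (median difference -0.11). Rps23, at the decoding centre, had the smallest spread of all readable members, at 17.66, 17.73, 17.95 and 17.62 on the KO arrays and 17.78, 17.66 and 17.50 on the WT arrays. Its difference was 0.10, with a 95% interval of -0.36 to 0.55.

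**Figure D2:**
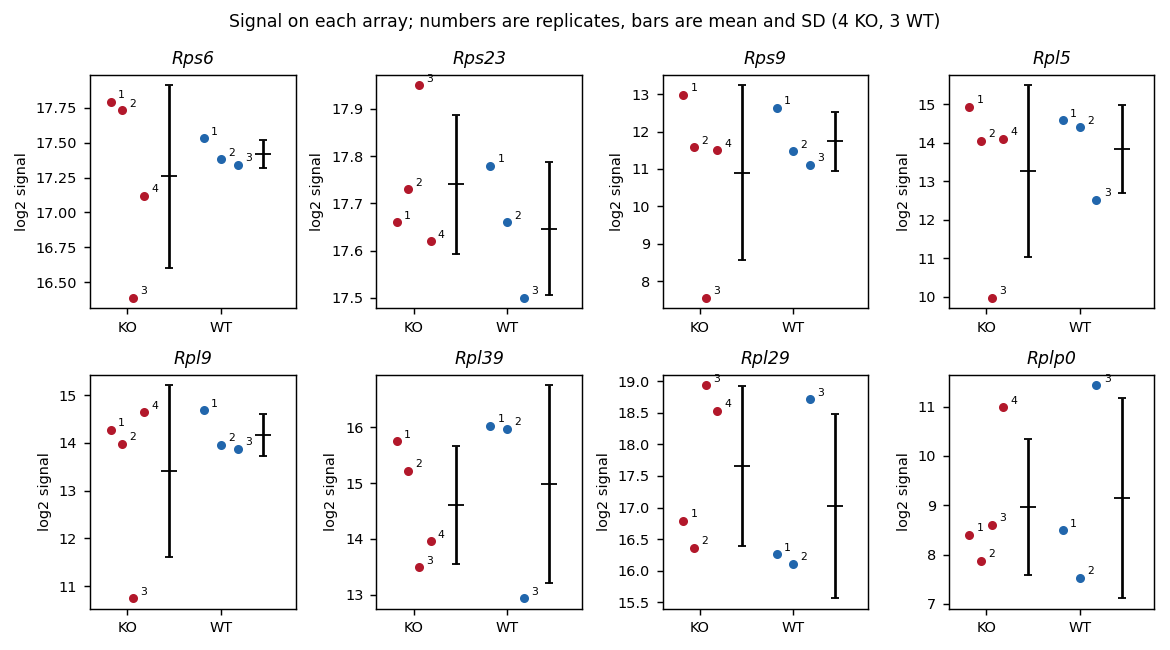
Log2 signal (y axis, a scale of its own in each panel) of 8 members on the KO arrays and the WT arrays, where points are arrays numbered by replicate and bars give the mean and SD of 4 KO and 3 WT arrays. The groups overlap in each panel. KO replicate 3 is lowest for Rps9, Rpl5 and Rpl9 and highest for Rpl29, and WT replicate 3 is lowest for Rpl39 and highest for Rplp0.

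The spread between arrays of a group was larger than the difference between groups for most members, and it fell on particular arrays. The SD within groups had a median of 0.607 over the members (range 0.145 to 1.88), against 0.433 over all transcript clusters and 0.758 over the 3333 at least as bright as the dimmest member. It was largest for Rps9, Rpl5, Rplp0 and Rpl9. Rps9, a 40S protein near the mRNA entry, was 12.99, 11.58, 7.55 and 11.50 on the KO arrays, against 12.63, 11.47 and 11.11 on the WT arrays. KO replicate 3 lay 4.48 log2 units below the mean of the other KO arrays, a deviation of -4.48, while the other KO arrays ran from 11.50 to 12.99 and the WT arrays from 11.11 to 12.63. The difference in means was -0.83 ± 1.18 (SE, unadjusted p = 0.505) and turned to 0.29 without KO replicate 3. Rpl9, of the large subunit, was 14.27, 13.98, 10.75 and 14.64 on the KO arrays, against 14.68, 13.96 and 13.88 on the WT arrays, and its difference was 0.12 without that array.

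On KO replicate 3, 20 of the 53 members (37.7%) lay more than 1 log2 unit below the mean of the other KO arrays. The same held for 9.55% of all transcript clusters and for 22.1% of those at least as bright as the dimmest member. The low members came from both subunits, 9 from the 40S and 11 from the 60S. After Rps9, Rpl5 and Rpl9 they deviated most for Rpl15 (-2.93), Rps13 (-2.66), Rpl21 (-2.55) and Rps14 (-2.21). Only 5 members (9.43%) lay more than 1 unit above the other KO arrays, against 9.84% of all and 19.6% of the bright transcript clusters. They were Rpl29 (1.71), Rpl7a (1.7), Rpsa (1.65), Rpl36a (1.52) and Rpl27 (1.31). The median over the members was -0.31 on this array, with quartiles at -1.38 and 0.36. The acinar mean was 8.6 on KO replicate 3, the lowest of the KO arrays, with 9.08 on KO replicate 1 and 7.37 on WT replicate 3. The Y-linked mean of KO replicate 3 was 7.49. The part of either in the spread was not tested.

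**Figure D3:**
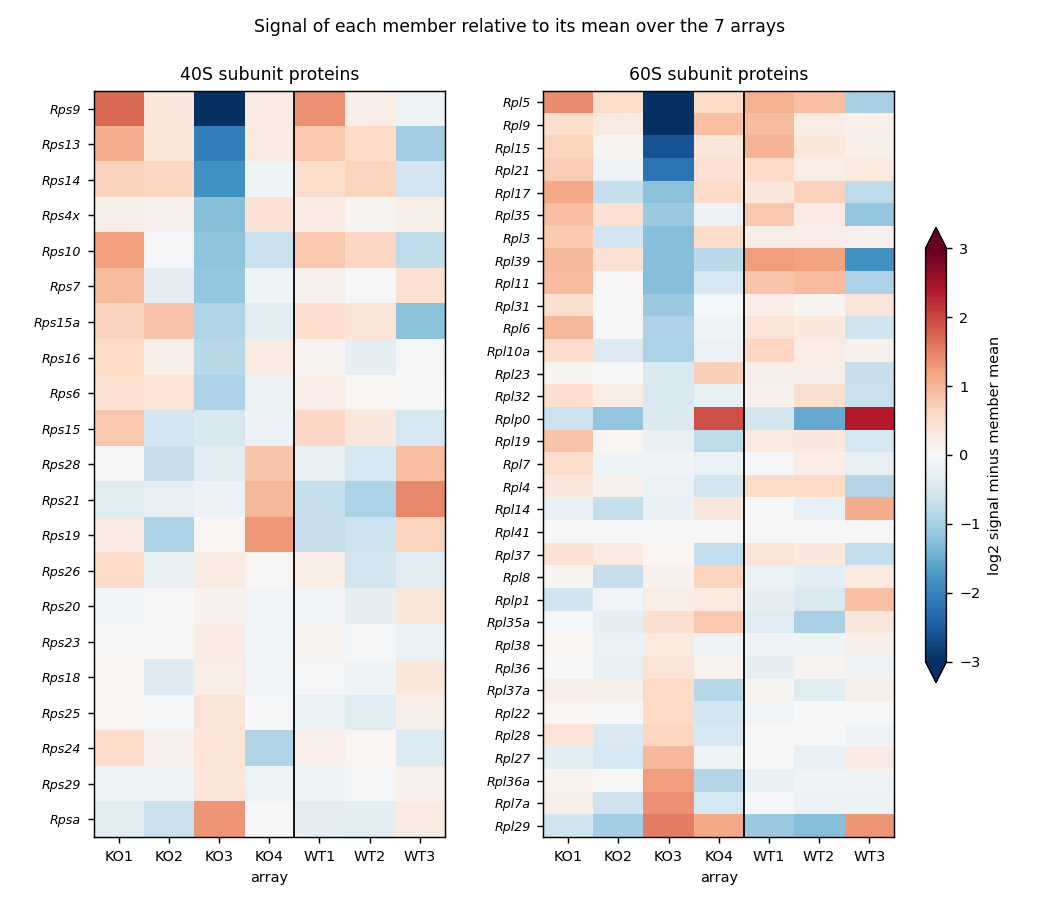
Log2 signal minus the mean of the member over the 7 arrays (colour, limited at 3 units either way), with arrays in columns and members in rows, ordered within each subunit by their deviation on KO replicate 3. Low values on KO replicate 3 reach from Rps9 and Rpl5 at the top through members of both subunits, and Rpl29 and Rpsa at the bottom are high there. Rpl41 was at the upper limit on all arrays.

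KO replicate 1 had the opposite pattern. There 18 members (34.0%) lay more than 1 unit above the other KO arrays, against 6.15% of all and 14.1% of the bright transcript clusters, and 1 lay below, against 4.50% and 9.03%. Part of this came from the low values of KO replicate 3 in the mean it was set against. With that array left out, a choice made after seeing the data, 9 members were above and 1 below, against 7.12% and 5.69% of all transcript clusters. KO replicate 2 had 3 members above and 3 below, against 5.17% and 4.45% of all and 14.4% and 9.21% of the bright transcript clusters. KO replicate 4 had 7 above (13.2%) and 4 below (7.55%), against 9.56% and 10.3% of all and 16.5% and 24.9% of the bright ones. With KO replicate 3 left out, KO replicate 2 had 0 above and 7 below (5.1% and 5.0% of all transcript clusters). KO replicate 4 then had 5 above and 7 below (9.61% and 10.6%).

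Among the WT arrays, WT replicate 3 had 12 members (22.6%) more than 1 unit below the others, against 9.49% of all and 24.3% of the bright transcript clusters, and 7 (13.2%) above, against 9.19% and 18.2%. Both shares were below those of the bright transcript clusters. The lowest was Rpl39 (-3.06) and the highest Rplp0 (3.42), followed by Rpl29 (2.53) and Rps21 (2.27). WT replicate 1 had 5 members above and 1 below (4.81% and 3.88% of all transcript clusters), and WT replicate 2 had 1 above and 3 below (4.50% and 4.57%).

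**Figure D4:**
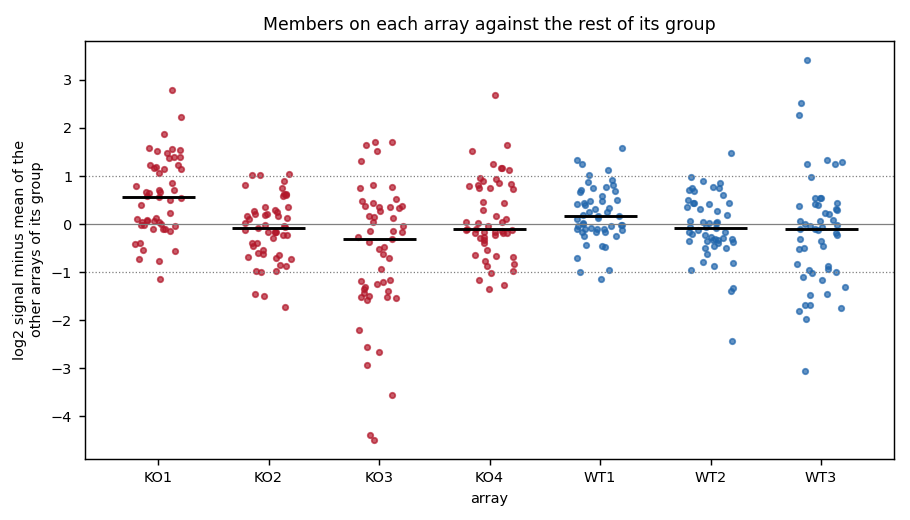
Log2 signal of each of the 53 readable members minus the mean of the other arrays of its group (y axis), by array (x axis, KO replicates 1 to 4 and WT replicates 1 to 3). Black bars are medians and dotted lines lie at 1 unit either way. KO replicate 1 is shifted up (median 0.56) and KO replicate 3 has the longest tail downward.

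Members that were low on KO replicate 3 were in part those low on WT replicate 3, although these arrays share no comparison sample. The 9 members low on both were Rpl5, Rpl11, Rpl17, Rpl35, Rpl39, Rps10, Rps13, Rps14 and Rps15a. They made up 45% of those low on KO replicate 3 and 75% of those low on WT replicate 3. The share of all transcript clusters low on both arrays was not counted, so these percentages have no background beside them. Only Rpl29 was high on both. Across the 53 members, the deviations of KO replicate 3 and WT replicate 3 from their own groups correlated at r = 0.482, against 0.105 over all and 0.165 over the bright transcript clusters. For KO replicate 4 and WT replicate 3 the value was 0.484, against 0.111 and 0.0952, and for KO replicate 1 and WT replicate 1 it was 0.814, against 0.235 and 0.277. Over the 12 pairs of a KO and a WT array the values differed widely, and those of unequal number ran from -0.757 (KO replicate 1 with WT replicate 3) to 0.754 (KO replicate 2 with WT replicate 1), so high values were not limited to equal numbers. These are descriptions across genes, which are not independent, and within a group the deviations of a gene over the arrays sum to 0, so that a low array makes the others high. They also share the probes.

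**Figure D5:**
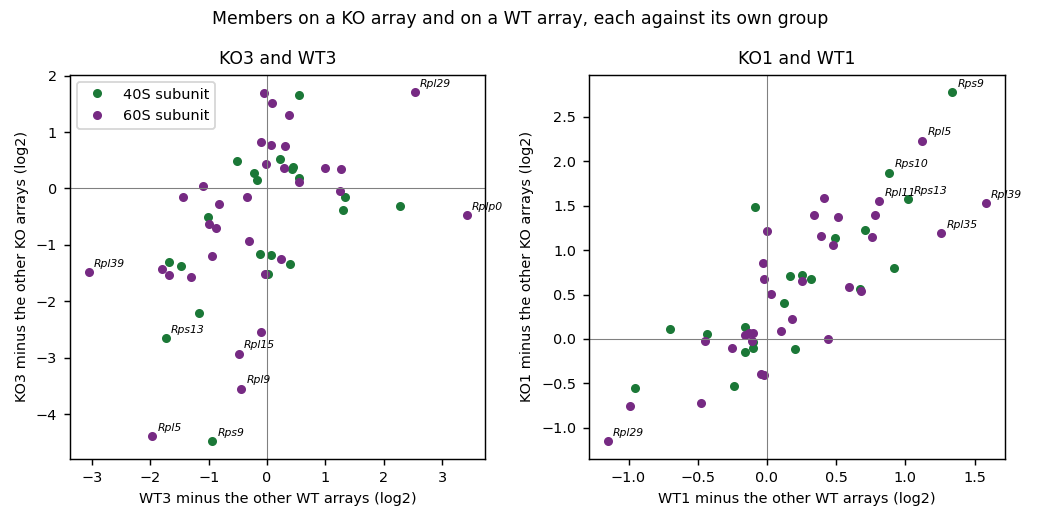
Deviation of each of the 53 readable members from the mean of the other arrays of its group, on KO replicate 3 (y axis) against WT replicate 3 (x axis) at left, and on KO replicate 1 against WT replicate 1 at right, in log2 units. In the left panel Rpl5, Rps13 and Rpl39 are low on both arrays and Rpl29 high on both, with r = 0.482 at left and 0.814 at right.

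Arrays with equal replicate numbers were also set against each other. In pair 1, 40 members were higher and 13 lower in KO, with a median of 0.21. In pair 2, 19 were higher and 34 lower (median -0.18), and in pair 3, 26 were higher and 27 lower (median -0.12). The median over all transcript clusters was 0.0 in each pair. Only 12 members (22.6%) had the same sign in all 3 pairs, against 24.5% of all transcript clusters. The 9 higher ones were Rpl29, Rpl35, Rpl35a, Rpl36a, Rpl37a, Rps15a, Rps24, Rps25 and Rps26, and the 3 lower ones Rpl10a, Rpl14 and Rpl15.

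Members were also divided by whether a pyrimidine run lay between 20 bases before and 30 after the listed start. The median difference between KO and WT was -0.15 over the 23 with a run, 0.03 over 18 readable members without one and 0.01 over 12 with no window listed, and 0 members of each passed an unadjusted p of 0.05. On KO replicate 3, 11 of the 23 were low and 1 high, against 5 low and 3 high of the 18, and 4 low and 1 high of the 12. Rps6, Rps9, Rpl5, Rpl11 and Rpl15, whose runs are printed above, were among the low ones, and Rps26, Rpl10a, Rpl14 and Rpl35a, printed with them, were not. These groups were not tested against each other.

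Related genes gave a similar picture. Of 18 other genes known or thought to have TOP mRNAs, 8 were above and 10 below WT (median -0.05), and 0 passed an unadjusted p of 0.05. The chaperonin subunit Cct4 had the smallest p, at 7.86, 7.53, 8.77 and 8.53 on the KO arrays and 8.0, 7.54 and 4.63 on the WT arrays (difference 1.45, unadjusted p = 0.106), and its low array was WT replicate 3. Of 13 genes of mTOR signalling to translation, Mtor and Tsc1 among them, 8 were above and 5 below (median 0.13) and 0 passed. Mtor, the kinase, was 5.42, 4.55, 4.12 and 4.30 on the KO arrays, against 5.86, 4.61 and 7.34 on the WT arrays (difference -1.35, unadjusted p = 0.0674). KO replicate 1 lay above WT replicate 2, so that the groups overlapped. The highest value of Mtor was on WT replicate 3. All its KO values and that of WT replicate 2 were below the medians of the deposited arrays (5.52 to 5.66).

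Of 12 paralogues, fusions and relatives of ribosomal protein genes, 6 were above and 6 below WT (median 0.11), and 0 passed. Rps27l, a paralogue of Rps27 known as a p53 target in human cells, was 13.89, 14.31, 16.88 and 15.19 on the KO arrays, against 13.22, 13.92 and 14.44 on the WT arrays (difference 1.21, unadjusted p = 0.128). Rsl24d1, whose yeast relative takes part in assembly of the large subunit, was the only one whose groups did not overlap. This was 8.33% of the 12, against 3.93% of all transcript clusters. Its signal was 5.90, 6.33, 6.18 and 5.89 on the KO arrays and 5.48, 5.88 and 5.55 on the WT arrays (difference 0.44, unadjusted p = 0.0836). The lowest KO value, 5.89, thus lay barely above the highest WT value, 5.88.

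Of 38 genes of ribosome assembly, 24 were above and 14 below WT (median 0.09) and 0 passed. Pes1, which acts in large subunit assembly, had the smallest p, at 9.51, 10.10, 10.01 and 11.42 on the KO arrays and 9.24, 8.96 and 9.88 on the WT arrays (difference 0.90, unadjusted p = 0.0935). Of 76 mitochondrial ribosomal proteins, encoded in the nucleus and used in mitochondria, 34 were above and 42 below WT (median -0.03), and 2 (2.63%) passed an unadjusted p of 0.05, against 2.18% of all transcript clusters, which is a similar share. Both were higher in KO, namely Mrpl22 (6.4, 6.66, 7.29 and 7.29 in KO, against 6.33, 5.56 and 6.30 in WT, unadjusted p = 0.0342) and Mrpl3 (6.76, 6.5, 7.99 and 6.43 in KO, against 6.19, 6.11 and 5.46 in WT, unadjusted p = 0.0473), each with an adjusted p of 1. On KO replicate 3, 16 of the 76 mitochondrial members (21.1%) were more than 1 unit low and 12 (15.8%) high. The shares were 37.7% and 9.43% for the cytosolic members, 9.55% and 9.84% for all and 22.1% and 19.6% for the bright transcript clusters. Low there were also 5 of the 13 mTOR signalling genes (38.5%) and 4 of the 18 other TOP genes (22.2%). Of the 38 assembly genes 7 (18.4%) were low, and of the 12 paralogues, fusions and relatives 0. The differences between these shares were not tested.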

How the data were processed

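RNA of β-cells sorted for GFP was hybridised to 7 arrays, 4 KO and 3 WT, each a separate pool of animals. The authors deposited log2 signals, 1 per transcript cluster and array. Expression Console and MAS5 (Affymetrix) stand in the submitters' processing notes and GeneSpring in the methods, but which gave the values, the background correction and the genome build are not given in the sources used here. Deposited values ran from 2.24 to 19.93, and array medians from 5.52 to 5.66. Depth has no counterpart on arrays, and their number limits the precision. Detection calls were not used.

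The platform annotation gave 1 symbol to 19565 transcript clusters, all of which were found by gene ID in RefSeq GRCm38.p6, and none to 2633. Members matched the symbol rule, with the row of highest mean per symbol. The members, lists and alternatives were chosen with earlier results of these data known. Genes given a p in the text were Rps6, the stalk proteins, Rpsa, Rpl5, Rpl11, the 6 higher and 6 lower members with the smallest p, the 4 with the largest SD within groups, and up to 3 genes per comparison list; other members are given by values.

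Values were quantile normalized and compared over all 22198 transcript clusters by the two-sided moderated test of limma 3.58.1 (R 4.3.3; lmFit, eBayes, genotype alone in the model) with Benjamini-Hochberg adjustment. The fit was tested on simulated data. Deviations of an array were taken from the mean of the other arrays of its group, with 1 log2 unit as the limit.

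Replicate numbers 1 to 3 occur in both groups. Over all transcript clusters, the deviations of arrays from their group mean correlated at 0.16, 0.243 and 0.165 between arrays of equal number, above the limit of 0.1, and between -0.181 and 0.0233 otherwise. What arrays of equal number have in common is not stated. The replicate number as a block was an alternative, as were other normalizations, filters, variance models, the methods' t-test, an acinar covariate and leaving out arrays.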

Additional observations from a re-analysis of the deposited data

Results flagged for a closer look

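Among the 54 sets of 4 KO values examined (the 53 readable members and their median signal), 4 had a value far from the others by Dixon's 95% limit, where chance gives about 2.7. The gap to the nearest other array took up 0.832 of the range for Rpl9, whose signal was 10.75 on KO replicate 3 while the other KO arrays lay between 13.98 and 14.64. It took up 0.907 for Rps29, whose signal stood at the upper limit of 19.91 on KO replicate 3, the other KO arrays lying between 19.35 and 19.40. For Rps21 the gap was 0.864, from 18.58 on KO replicate 4 down to a range of 17.23 to 17.41. Its signal was higher still on WT replicate 3 (19.04), with 16.89 and 16.64 on WT replicates 1 and 2. For Rpl7 it was also 0.864, from 16.37 on KO replicate 1 down to a range of 15.65 to 15.75.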

How the results depend on the processing

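The number of members with an unadjusted p under 0.05 was 0 in each alternative other than leaving out KO replicate 1, and ranged from 0 to 1 with an array left out. The median difference over the members ran from -0.13 to 0.04 over all alternatives, and 0 transcript clusters had an adjusted p under 0.05 in each alternative that was fitted over all of them. In the fit with a replicate block, in which KO replicate 4 has no partner, the median was 0.0, 0 members and 579 transcript clusters had an unadjusted p under 0.05, and no call changed. The number of transcript clusters was 311 without the dimmest 25 percent and 177 without the dimmer 50 percent, where fewer were tested, and 302 to 695 with an array left out, against 484; it was 302 without WT replicate 3. Members with groups that did not overlap numbered 0 to 7 with an array left out (7 without WT replicate 3, where 9.48% of all transcript clusters did not overlap) and 14 on the 4 arrays most alike, KO and WT replicates 1 and 2 (26.4%, against 27.9% of all).

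The directions of some named members turned. With array weights the differences were 0.07 for Rps6, 0.12 for Rplp0 and 0.04 for Rplp1. On the 4 arrays most alike they were 0.28 for Rps6, 0.14 for Rplp0, 0.02 for Rplp1, -0.20 for Rpsa, -0.01 for Rpl36, 0.10 for Rpl31 and 0.24 for Rps9. With each array left out in turn, the differences ran from -0.34 to 0.12 for Rps6, -0.98 to 0.96 for Rplp0, -0.36 to 0.30 for Rplp1, -0.23 to 0.44 for Rpsa, -1.24 to 0.53 for Rpl5, -1.16 to 0.12 for Rpl9 and -1.52 to 0.29 for Rps9. Leaving out KO replicate 3 turned the sign of Rps6, Rpsa, Rpl5, Rpl9 and Rps9. No named member had an adjusted p under 0.05 in any alternative (lowest 0.933), and the cause of these turns was not tested. The bright transcript clusters as a background, and the deviations with KO replicate 3 left out, were added after seeing the data. Each symbol had 1 row, and no member but Rpl41 lay near the upper limit on at least 4 arrays, so the alternatives on duplicate rows and near-limit values changed nothing. Signal near the upper limit leaves differences there unreadable.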
